A study of Mus musculus with 24 samples.

Results

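The comparison described here set brain tissue of glioma-bearing, treated mice that received Shef6 extracellular vesicles (CT2A + RT-TMZ + Shef6 EV, n = 3) against that of untreated mice given vehicle (Control + Veh, n = 4). Its 7 samples, of 24 in the series, were chosen by their sample titles. The study asked whether extracellular vesicles (EV) shed by human neural stem cells alter the response of the brain to chemoradiotherapy for glioma. By the labels and the series' design text all 24 mice were C57BL/6J males, aged 27 weeks at perfusion, although the study as a whole used both sexes. Mice of the CT2A + RT-TMZ + Shef6 EV group carried an implanted tumor of the murine glioma line CT2A, received cranial irradiation in 3 fractions with temozolomide (RT-TMZ), and then received repeated injections of EV from the Shef6 human neural stem cell line. By the labels each fraction was 9 Gy, and the methods give a slightly lower dose. Temozolomide, an alkylating drug, was given at 25 mg/kg during irradiation and at 66.7 mg/kg afterwards. Control + Veh mice had no tumor, no irradiation and no temozolomide, and received the vehicle of the EV. The groups therefore differ in tumor, chemoradiotherapy and EV at once, and these cannot be told apart in this comparison. Values of CT2A + RT-TMZ + UCI-191 EV (EV of a second human neural stem cell line, n = 3), CT2A + RT-TMZ + Veh (n = 4) and RT-TMZ + Shef6 EV (no tumor, n = 3) are given where they show how the group differs from those nearest to it in treatment. The model rests on a single implanted cell line, and the labels do not give the tumor content of a sample.

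RNA was hybridized to the barcoded probes of a mouse neuroinflammation panel, and the barcodes were counted without amplification. Of 757 probes, 703 carry a gene symbol. Levels below are log2 normalized counts, so a difference of 1 is a 2-fold change. The total counts implied by the values were 1008729 to 1195768 per sample in CT2A + RT-TMZ + Shef6 EV and 1287721 to 1432455 in Control + Veh. Between 70 and 76 probes lay under 20 normalized counts (log2 4.32, taken as background) in CT2A + RT-TMZ + Shef6 EV samples and 92 to 112 in Control + Veh samples. Pearson r between replicates over the probes was 0.987 to 0.994 in CT2A + RT-TMZ + Shef6 EV and 0.990 to 0.996 in Control + Veh. The labelled tissue, brain, was borne out by its markers: the 4 measured neuron markers Rbfox3, Tubb3, Syp and Dlg4 summed to 41296 to 45616 normalized counts in CT2A + RT-TMZ + Shef6 EV and 46233 to 47949 in Control + Veh. The brain region is given differently in the labels, the methods and a legend, and is not settled. Transthyretin (Ttr), the abundant secretory product of the choroid plexus, set 1 sample apart. Its log2 level was 9.73 in CT2A + RT-TMZ + Shef6 EV replicate 1 against 14.31 and 14.86 in the other two, and 9.19, 10.27, 6.72 and 7.02 in Control + Veh.

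The panel samples the cells through which the brain answers injury. Microglia, the resident macrophages, keep a surveying state marked by genes such as P2ry12 and Tmem119 and leave it when activated, with induction of phagocytic receptors, complement and chemokines. Astrocytes respond to injury with a reactive program, endothelial cells maintain the blood-brain barrier, and irradiation activates p53, whose best known target Cdkn1a stops the cell cycle. Neuronal firing induces the immediate early genes Fos, Arc and Egr1 within minutes, and these transcripts decay quickly when activity stops.

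Of the 757 probes, 86 were higher and 50 were lower in CT2A + RT-TMZ + Shef6 EV than in Control + Veh at an adjusted p under 0.05 (limma). These were 18.0% of probes in all, 11.4% higher and 6.61% lower. Among the higher probes 78 had a symbol, and among the lower 49. Rises were the larger changes, with 24 probes higher and 3 lower by more than 1 on the log2 scale, while the median log2 fold change of all 757 probes was 0.02. The smallest adjusted p-values were those of the immediate early genes, which fell, and of Cdkn1a, which rose, and the largest rise was of Ttr, whose values overlapped between the groups. Among called genes without overlap the 3 largest rises were those of Lilrb4a, Steap4 and Cd74. These are a myeloid receptor gene, a gene of the reactive astrocyte list and an MHC class II gene. Lilrb4a and Steap4 each had a Control + Veh sample below background. The samples of the groups did not overlap for 232 probes (30.6%), of which 136 were higher (18.0%) and 96 lower (12.7%), and 133 of the 136 called probes were among them. The split of the calls depended on the scaling: 72 were higher and 63 lower after median centring, 58 and 62 after quantile normalization, and 39 and 238 without the authors' scaling factor, where the median of all fold changes was -0.24. Single samples also moved the count, to 57 calls without Control + Veh replicate 1, 69 without Control + Veh replicate 3, 73 without CT2A + RT-TMZ + Shef6 EV replicate 2 and 85 without its replicate 3. Of the 127 called genes with a symbol, 46 kept their call whichever of the 7 samples was left out. Of the 127, 75 lost it without Control + Veh replicate 1, 64 without Control + Veh replicate 3, 61 without CT2A + RT-TMZ + Shef6 EV replicate 2 and 56 without its replicate 3, and 19 to 29 without each of the other 3 samples.

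**Figure D1:**
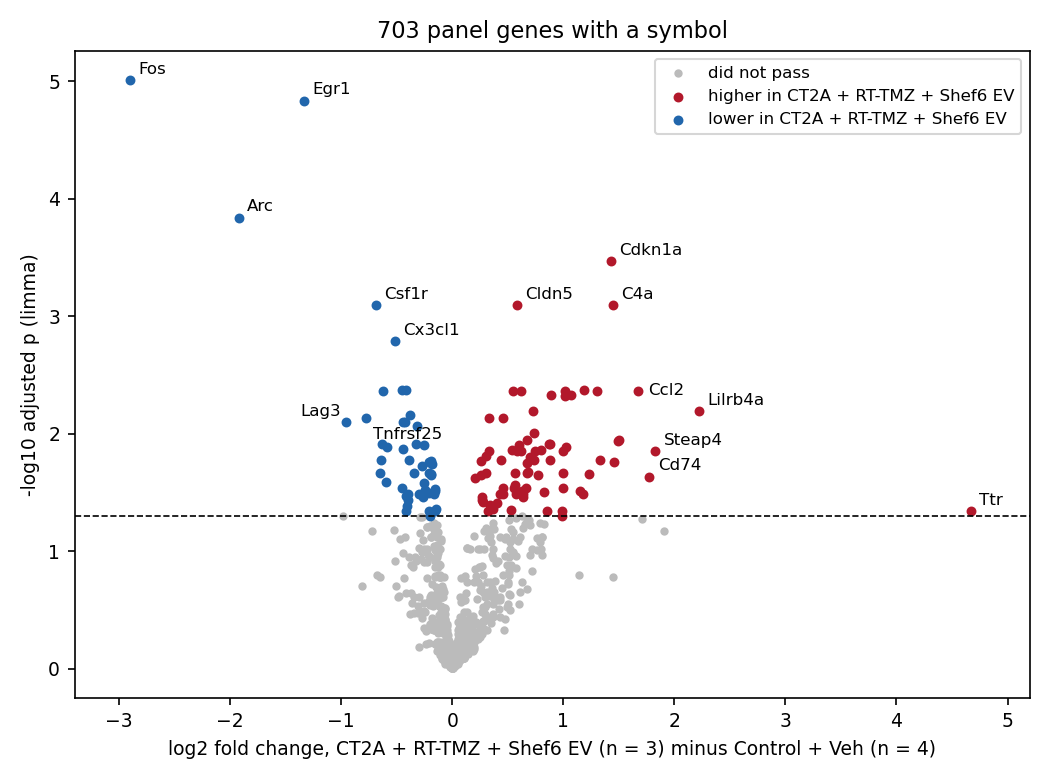
Each point is a panel gene, placed by its log2 fold change between CT2A + RT-TMZ + Shef6 EV and Control + Veh and by its -log10 adjusted p from limma, with the 0.05 threshold as a dashed line. Fos, Egr1 and Arc stand apart at the upper left, Cdkn1a leads the genes that were higher, and Ttr lies far to the right just above the threshold.

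Activity-dependent genes fell most. Fos, a transcription factor gene induced by neuronal firing, was at 7.20, 7.42 and 7.37 in CT2A + RT-TMZ + Shef6 EV and at 10.25, 9.89, 10.35 and 10.44 in Control + Veh. No samples of the groups overlapped, and the difference was -2.90 ± 0.13 (SE, adjusted p = 9.77e-06), a 7.48-fold lower level. Arc, which encodes a dendritic protein of synaptic plasticity, was at 9.90, 10.24 and 10.05 in CT2A + RT-TMZ + Shef6 EV against 12.02, 12.03, 12.25 and 11.64 in Control + Veh (-1.92 ± 0.14, adjusted p = 0.000145). Egr1, another activity-induced transcription factor gene, was at 11.24, 11.30 and 11.20 against 12.58, 12.52, 12.76 and 12.48 (-1.34 ± 0.07, adjusted p = 1.46e-05). For all 3 genes the lowest Control + Veh sample lay well above the highest CT2A + RT-TMZ + Shef6 EV sample, and the call held under every scaling and every sample left out. Homer1, a synaptic scaffold gene with an activity-induced isoform, differed by -0.27 ± 0.06 (adjusted p = 0.0187), a call that was lost without Control + Veh replicate 3 or CT2A + RT-TMZ + Shef6 EV replicate 2 (adjusted p up to 0.0578). In the list of 7 immediate early genes 4 fell, where 6.61% of all probes were lower, and none rose. Jun (-0.29, adjusted p = 0.0512) and Bdnf (-0.27, adjusted p = 0.0805) did not pass, and neither did Osgin1 (0.81, adjusted p = 0.0764). The list's median of -0.29 compares with 0.02 for all probes.

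The promoter of Fos is shown because it is the gene with the smallest adjusted p. The window is the 300 bases around the RefSeq start (GRCm38.p6, chr12:85473640-85473939, plus strand), with the letters TGACG, a core element bound by CREB, in capitals on either strand. It holds 2 matches, and 20.8% of 32851 RefSeq promoter windows hold at least 1. A CArG box was found in no part of this window and in 1.63% of all windows. Bases outside the window were not searched, so a CArG box farther from the start would be missed.
Fos promoter: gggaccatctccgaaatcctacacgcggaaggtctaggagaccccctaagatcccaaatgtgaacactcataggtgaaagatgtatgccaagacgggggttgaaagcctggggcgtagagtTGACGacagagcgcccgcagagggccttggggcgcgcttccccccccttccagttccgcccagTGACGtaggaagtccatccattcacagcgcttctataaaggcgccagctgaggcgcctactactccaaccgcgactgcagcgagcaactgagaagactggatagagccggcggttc

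The plot of all 7 groups sets these genes beside the other treated mice. Fos and Arc averaged below Control + Veh in every treated group, while Egr1 averaged 12.76 in CT2A + RT-TMZ + UCI-191 EV and 12.83 in RT-TMZ + Shef6 EV against 12.59 in Control + Veh. Fos averaged 7.33 ± 0.12 in CT2A + RT-TMZ + Shef6 EV and 8.60 ± 0.45 in CT2A + RT-TMZ + Veh (SD, n = 3 and 4), a difference of -1.27 ± 0.24 (SE, adjusted p = 0.0282), and the samples did not overlap. That call was lost after quantile normalization, with the methods' test, with Ttr as a covariate and without any single CT2A + RT-TMZ + Shef6 EV sample or CT2A + RT-TMZ + Veh replicate 1 or 3, since each of these left 0 calls in that comparison. In CT2A + RT-TMZ + UCI-191 EV it ranged from 8.40 to 10.97 (-2.33 ± 0.57, adjusted p = 0.0612) and in RT-TMZ + Shef6 EV from 7.63 to 11.03 (-2.52 ± 0.87, adjusted p = 0.37). Arc did not differ past the threshold from CT2A + RT-TMZ + Veh (-0.52 ± 0.37, adjusted p = 0.399), and neither did Egr1 (-0.36 ± 0.11, adjusted p = 0.0799). Replicates of CT2A + RT-TMZ + UCI-191 EV and RT-TMZ + Shef6 EV were widely spread in Fos, Arc and Egr1, whereas those of CT2A + RT-TMZ + Shef6 EV lay close together.

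**Figure D2:**
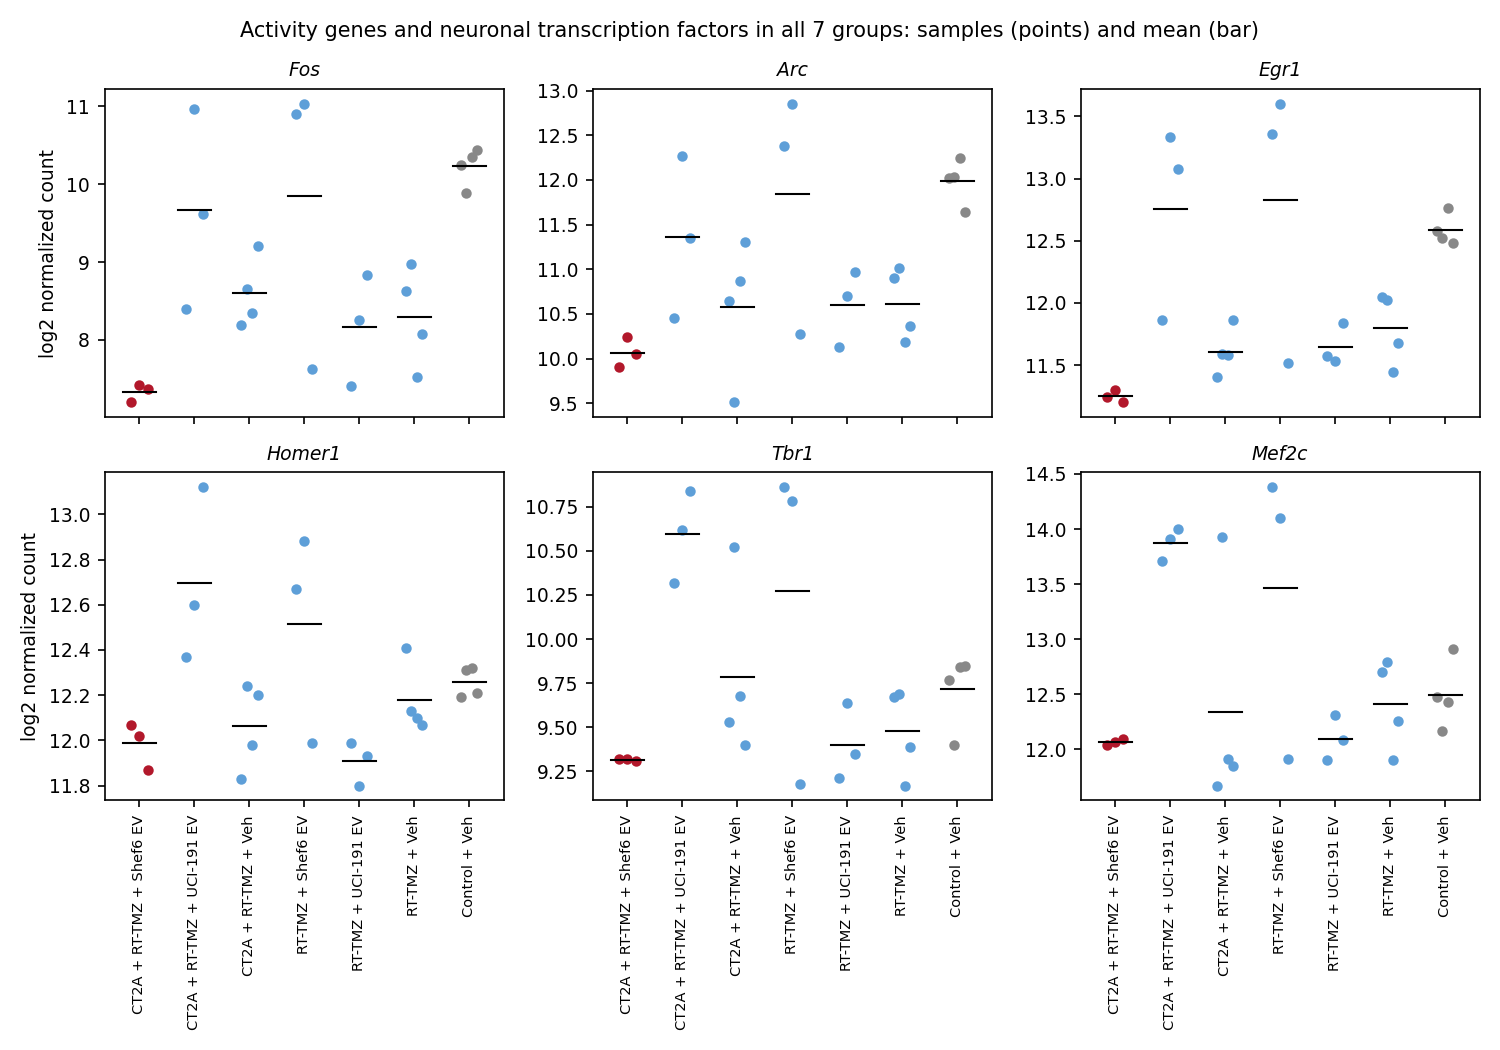
Log2 normalized counts of 4 activity-dependent genes and of the neuronal transcription factor genes Tbr1 and Mef2c in each sample of the 7 groups, with the group mean as a bar. CT2A + RT-TMZ + Shef6 EV (red) holds the lowest mean of Fos, Arc, Egr1, Tbr1 and Mef2c, and Control + Veh (grey) lies above it in every panel.

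Cdkn1a, which encodes the cell cycle inhibitor p21, was at 9.27, 9.48 and 9.46 in CT2A + RT-TMZ + Shef6 EV and at 7.82, 7.93, 7.88 and 8.28 in Control + Veh. The groups did not overlap, and the difference of 1.43 ± 0.12 (SE, adjusted p = 0.00034) held under every scaling and with any sample left out. Its mean was 9.04 to 9.84 in the other 5 treated groups, and the level in CT2A + RT-TMZ + Shef6 EV did not differ past the threshold from any of the 3 compared directly (adjusted p = 0.338 against UCI-191 EV, 0.128 against CT2A + RT-TMZ + Veh and 0.37 against RT-TMZ + Shef6 EV). Of 10 measured p53 targets Cdkn1a alone rose, where 11.4% of all probes were higher, and 2 fell, where 6.61% were lower. Gadd45g, a stress-response gene, fell (-0.60 ± 0.14, adjusted p = 0.0259), as did Sesn1, a stress-induced metabolic regulator (-0.15 ± 0.04, adjusted p = 0.0295). Gadd45g lost its call without Control + Veh replicates 1 or 3 or CT2A + RT-TMZ + Shef6 EV replicate 2 (adjusted p up to 0.0696), and Sesn1 without any sample but Control + Veh replicate 4 (up to 0.078). Mdm2, which encodes the ubiquitin ligase that degrades p53, was at a difference of -0.03 (adjusted p = 0.75), and the apoptosis gene Bbc3 at 0.34 (adjusted p = 0.0744). None of 31 genes of DNA damage signaling and repair passed, where 18.0% of all probes did, and the list's median was 0.01. Rad50, of the double-strand break complex, came closest (0.29 ± 0.09, adjusted p = 0.0672), and H2ax was at 0.34 ± 0.16 (adjusted p = 0.184).

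None of 12 proliferation genes passed either, where 18.0% of all probes did. Top2a, the topoisomerase of dividing cells, was at 4.63, 4.10 and 5.02 in CT2A + RT-TMZ + Shef6 EV and at 5.60, 5.25, 5.26 and 5.10 in Control + Veh (-0.72 ± 0.23, adjusted p = 0.0672). E2f1, a driver of S phase entry, was at -0.36 ± 0.15 (adjusted p = 0.131). The 3 measured markers of dividing cells, Top2a, Rrm2 and E2f1, summed to 147 to 164 normalized counts in the tumor-implanted group and to 182 to 227 in Control + Veh. All 3 markers had a difference below 0. Of the 12 listed genes 5 were above 0, among them Birc5 (0.51, adjusted p = 0.159), and the list's median was -0.06. As these are bulk samples, fewer cells of a type and less RNA per cell cannot be told apart, here and below.

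**Figure D3:**
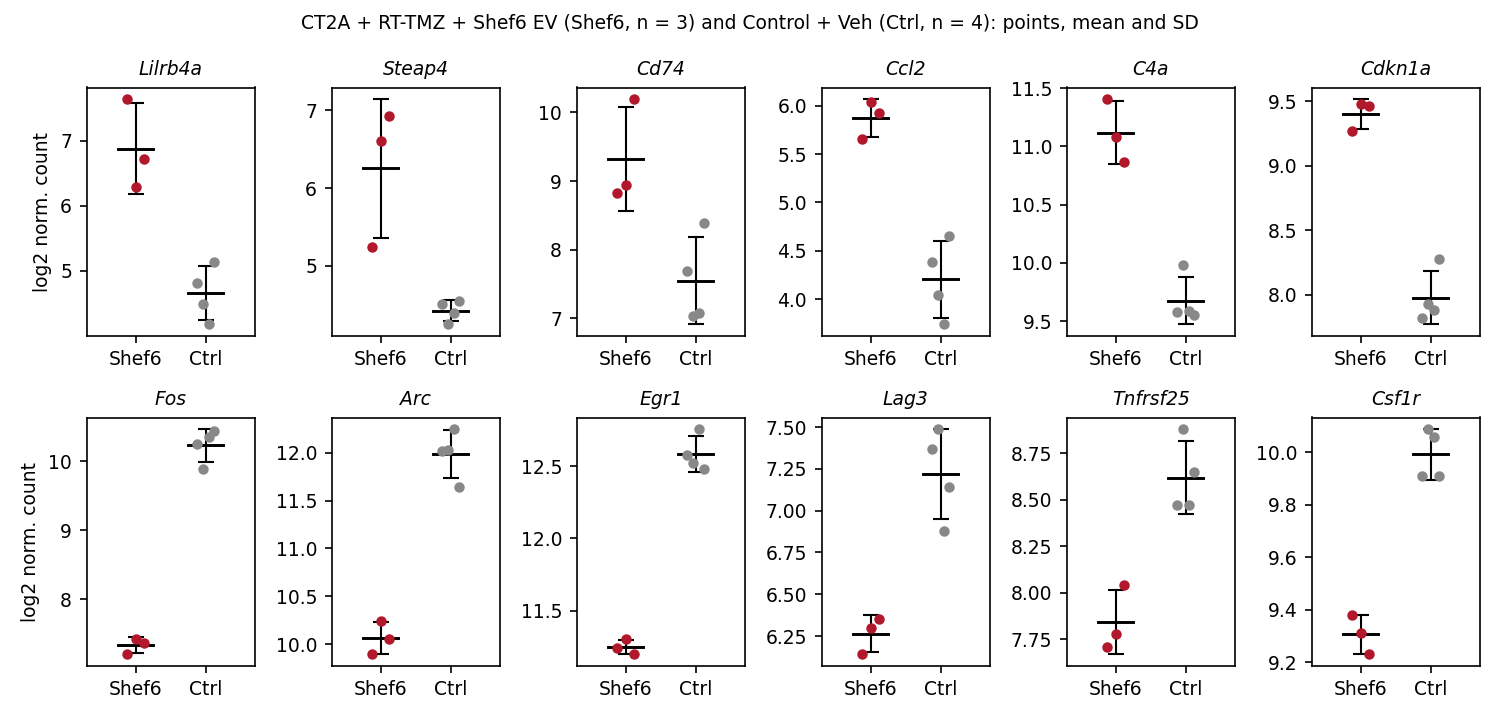
Log2 normalized counts of 6 genes that were higher (top row) and 6 that were lower (bottom row) in CT2A + RT-TMZ + Shef6 EV (Shef6, red, n = 3) than in Control + Veh (Ctrl, grey, n = 4), each panel with its own scale, with points for samples and the mean with its SD. In none of the 12 genes do the groups overlap, and the spread of the red points is widest in Steap4, Cd74 and Lilrb4a.

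Microglial genes moved in both directions. Csf1r, the receptor on which microglia depend for survival, was at 9.38, 9.31 and 9.23 in CT2A + RT-TMZ + Shef6 EV against 9.91, 10.09, 10.06 and 9.91 in Control + Veh (-0.69 ± 0.07, adjusted p = 0.000803). This fall held under every scaling and with any sample left out. Sall1, a transcription factor gene of microglial identity, fell as well, with 9.06, 9.11 and 9.04 against 9.40, 9.58, 9.40 and 9.44 (-0.39 ± 0.06, adjusted p = 0.00691). Tmem119 (-0.35 ± 0.08, adjusted p = 0.0218) and the purinergic receptor gene P2ry12 (-0.41 ± 0.11, adjusted p = 0.041) fell too, although P2ry12 overlapped between the groups. Tmem119 lost its call without Control + Veh replicates 1 or 3 or CT2A + RT-TMZ + Shef6 EV replicates 1 or 2 (adjusted p up to 0.0696), and P2ry12 without any sample but Control + Veh replicate 4 (up to 0.111). In the opposite direction, Fcrls, an Fc receptor-like gene typical of microglia, was at 10.08, 9.94 and 9.77 against 9.36, 9.42, 9.45 and 9.32 (0.54 ± 0.08, adjusted p = 0.00437). The 4 defining microglia markers Cx3cr1, P2ry12, Tmem119 and Csf1r summed to 3246 to 3521 normalized counts in CT2A + RT-TMZ + Shef6 EV and 3648 to 4523 in Control + Veh, and 3 of the 4 fell. Of 15 homeostatic microglia genes 3 rose and 4 fell, where 11.4% of all probes were higher and 6.61% lower, with a median of -0.05. The balance depended on the scaling, with 2 rises and 6 falls after median centring and 1 rise and 8 falls without the scaling factor. The other rises, of Olfml3 (0.28) and Ltc4s (0.99), were lost without several single samples (adjusted p up to 0.122 and 0.139). Cx3cr1, the fractalkine receptor gene, was at a difference of 0.05 (adjusted p = 0.75). Its ligand gene Cx3cl1, made by neurons, was at 11.16, 11.35 and 11.37 in CT2A + RT-TMZ + Shef6 EV against 11.84, 11.79, 11.85 and 11.76 in Control + Veh, with no overlap, and fell by 0.52 ± 0.06 (adjusted p = 0.00164).

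Of 9 complement genes 5 rose and 1 fell, where 18.0% of all probes passed, and the list's median was 0.37. The rises numbered 2 after median centring, without the scaling factor, with all groups in 1 fit and with Ttr as a covariate. C4a, of the classical pathway, was at 11.41, 11.08 and 10.87 in CT2A + RT-TMZ + Shef6 EV and at 9.58, 9.98, 9.59 and 9.55 in Control + Veh, a 2.72-fold higher level (1.45 ± 0.14, adjusted p = 0.000803). The mouse genome carries a near-identical copy of this gene, C4b, and the share of each in the signal was not tested. C3ar1, the receptor for the C3a fragment, was at 8.03, 7.42 and 7.66 against 6.47, 6.71, 6.44 and 6.44 (1.19 ± 0.16, adjusted p = 0.00422). The groups did not overlap for either gene, and neither call depended on a single sample. The chains of the initiating protein, C1qa (0.33 ± 0.07), C1qb and C1qc (0.27 ± 0.07 each), rose by small amounts with adjusted p = 0.0141, 0.037 and 0.0344. Those calls were less firm, since C1qa missed the threshold without Control + Veh replicate 1 (adjusted p = 0.051), and C1qb and C1qc missed it without any sample but Control + Veh replicate 2 or CT2A + RT-TMZ + Shef6 EV replicate 3 (up to 0.108). Itgam, the alpha chain of complement receptor 3, fell (-0.44 ± 0.09, adjusted p = 0.0134).

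**Figure D4:**
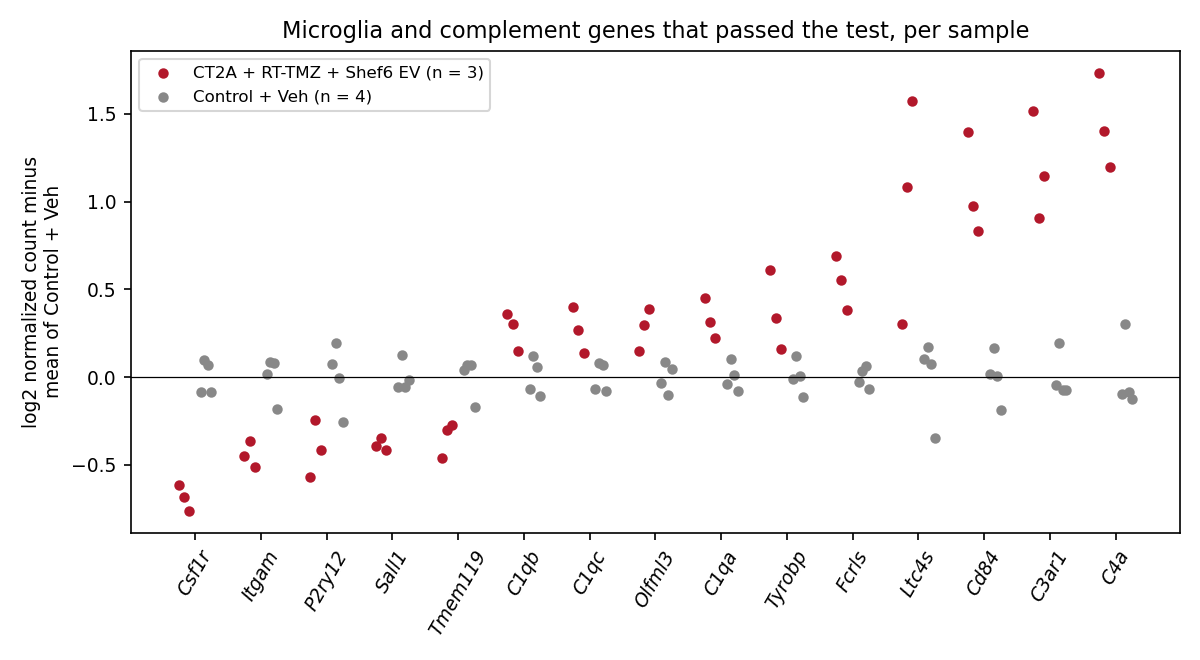
Log2 normalized counts minus the Control + Veh mean for the 15 plotted microglia and complement genes, with CT2A + RT-TMZ + Shef6 EV samples in red and Control + Veh samples in grey. Csf1r, Itgam, Sall1 and Tmem119 lie below every control sample and C3ar1, C4a and Cd84 above, while P2ry12 overlaps.

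Genes of myeloid receptors and a chemokine rose. Lilrb4a, an inhibitory receptor of myeloid cells, was at 7.64, 6.28 and 6.71 in CT2A + RT-TMZ + Shef6 EV and at 4.82, 4.49, 4.18 and 5.14 in Control + Veh, a 4.66-fold higher level (2.22 ± 0.34, adjusted p = 0.00641). Mice carry a near-identical neighbor of this gene, and the share of each in the signal was not tested. Lilrb4a was below background in Control + Veh replicate 3. Ccl2, the main attractant of monocytes, was at 5.66, 6.04 and 5.93 against 4.39, 4.04, 3.74 and 4.65 (1.67 ± 0.23, adjusted p = 0.00433), and its control levels lay close to background. Cd74, the invariant chain of MHC class II, was at 8.83, 8.94 and 10.20 against 7.69, 7.04, 7.07 and 8.39 (1.78 ± 0.42, adjusted p = 0.0232). The groups did not overlap in any of these genes, but Cd74 lost its call without CT2A + RT-TMZ + Shef6 EV replicate 3 or Control + Veh replicates 1 or 3 (adjusted p up to 0.0668). The macrophage receptor genes Siglec1 (1.49 ± 0.27, adjusted p = 0.0115), Msr1 (1.46 ± 0.31, adjusted p = 0.0173) and Igsf6 (1.23 ± 0.28, adjusted p = 0.0219) rose, as did the SLAM family genes Ly9 (1.50 ± 0.27, adjusted p = 0.0114), Slamf9 (1.30 ± 0.18, adjusted p = 0.00437) and Cd84 (1.07 ± 0.16, adjusted p = 0.00468) and the lectin gene Cd72 (1.33 ± 0.28, adjusted p = 0.0167). Of these, Msr1 was lost without Control + Veh replicate 1 or 3 (adjusted p up to 0.061), Igsf6 without those or CT2A + RT-TMZ + Shef6 EV replicates 1 or 3 (up to 0.0696), and Cd72 without CT2A + RT-TMZ + Shef6 EV replicate 3 (0.0551).

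Activated-microglia genes counted 6 rises and no fall among 18, with a median of 0.34, and monocyte, macrophage and neutrophil genes 4 rises and no fall among 13, with a median of 0.35, where 11.4% of all probes were higher. With Ttr as a covariate each list held 1 rise, and after quantile normalization they held 3 rises among the 18, and 1 rise and 1 fall among the 13. The innate receptor gene Tlr2 was at 4.99, 4.92 and 5.07 in CT2A + RT-TMZ + Shef6 EV against 3.77, 3.48, 4.52 and 4.20 in Control + Veh (1.001 ± 0.25, adjusted p = 0.0291), and the signalling adaptor gene Tyrobp rose by 0.37 ± 0.10 (adjusted p = 0.0436). Trem2, its partner receptor, was at 0.28 (adjusted p = 0.224) and Apoe at 0.12 (adjusted p = 0.164). Fcgr2b, an inhibitory Fc receptor gene, rose by 0.68 ± 0.15 (adjusted p = 0.0213), and Ccr2, the Ccl2 receptor gene of infiltrating monocytes, was at 4.63, 4.19 and 5.31 against 3.96, 3.70, 3.32 and 3.91 (0.99 ± 0.28, adjusted p = 0.0454). Ccr2 was below background in every Control + Veh sample and in 1 CT2A + RT-TMZ + Shef6 EV sample. Tlr2 was below background in every Control + Veh sample but replicate 3. Tlr2 missed the threshold without Control + Veh replicate 1 or any CT2A + RT-TMZ + Shef6 EV sample (adjusted p up to 0.0832), Tyrobp without any of 5 samples (up to 0.0999), Ccr2 without any of 6 (up to 0.118), and Fcgr2b without Control + Veh replicate 1 (0.0689).

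The 3 measured markers of infiltrating myeloid cells, Ccr2, Cd14 and Cd163, summed to 111 to 151 normalized counts in CT2A + RT-TMZ + Shef6 EV and 110 to 139 in Control + Veh, so the sums overlapped. The part of infiltrating cells in the myeloid genes was not tested.

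Among 16 chemokines and cytokines 6 rose and 1, Cx3cl1, fell, where 11.4% of all probes were higher, with a median of 0.40. The rises numbered 2 after quantile normalization, 1 with all groups in 1 fit and 0 with Ttr as a covariate. Ccl3, another chemokine of myeloid cells, was at 5.45, 5.92 and 5.81 in CT2A + RT-TMZ + Shef6 EV against 4.91, 4.96, 4.64 and 4.91 in Control + Veh (0.87 ± 0.16, adjusted p = 0.0121). Tnf rose by 0.66 ± 0.16 (adjusted p = 0.0291) but was below background in every Control + Veh sample and in 2 of the 3 CT2A + RT-TMZ + Shef6 EV samples, and Csf1 and Tgfb1 rose by 0.31 and 0.32. The calls of Tnf, Csf1 and Tgfb1 each ended without any of at least 4 single samples (adjusted p up to 0.125). Il1b was at 0.28 (adjusted p = 0.453) and Ccl5 at 0.19 (adjusted p = 0.595).

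The T and NK cell list and the B cell list gave no such signal. None of 21 T and NK cell genes passed in either direction (median 0.09), where 18.0% of all probes did, and only 3 of the 21 lay above background on average. All 6 defining markers, Cd3d, Cd3e, Cd3g, Cd8a, Gzma and Prf1, were below 20 normalized counts in every CT2A + RT-TMZ + Shef6 EV sample, and summed to 69.4 to 70.7 against 60.4 to 84.9 in Control + Veh. None of 6 B cell genes passed. These lists do not cover every gene that lymphocytes express, and Ly9 and Cd72, named above, rose. Cd69 and S1pr4, also outside the lists, rose as well, and both lost their call without Control + Veh replicate 1 (adjusted p up to 0.0569). One gene tied to lymphocytes fell: Lag3, an immune checkpoint receptor gene that microglia and neurons also express, was at 6.14, 6.30 and 6.35 in CT2A + RT-TMZ + Shef6 EV against 7.37, 7.49, 6.88 and 7.14 in Control + Veh (-0.96 ± 0.16, adjusted p = 0.00797). Tnfrsf25, a death receptor gene of the same superfamily as the TNF receptors, fell by 0.77 ± 0.13 (adjusted p = 0.00738). Foxp3, the regulatory T cell factor, stood below background in all 7 samples and was at -0.52 (adjusted p = 0.121).

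Of 19 genes of the interferon response 9 rose, where 11.4% of all probes were higher, and none fell, with 18 of 19 differences above 0 and a median of 0.54. Ifitm3, a membrane restriction factor, was at 10.32, 10.44 and 10.89 in CT2A + RT-TMZ + Shef6 EV and at 9.50, 9.77, 9.30 and 9.56 in Control + Veh (1.02 ± 0.15, adjusted p = 0.00482). Cxcl10, an interferon-induced chemokine, was at 5.48, 6.10 and 5.88 against 4.82, 5.07, 4.52 and 4.79 (1.02 ± 0.20, adjusted p = 0.0129). No samples of the groups overlapped for either gene, and both calls held with any sample left out. Both were lost with the methods' test and with Ttr as a covariate, and Cxcl10 also after quantile normalization, with all groups in 1 fit and with Mef2c as a covariate. The guanylate-binding protein gene Gbp2 (0.996 ± 0.23, adjusted p = 0.0218), the antiviral gene Rsad2 (0.88 ± 0.19, adjusted p = 0.0167) and the nucleic acid sensor gene Zbp1 (1.18 ± 0.31, adjusted p = 0.0329) rose, and were lost without Control + Veh replicates 1 or 3 or CT2A + RT-TMZ + Shef6 EV replicates 2 or 3 (adjusted p up to 0.108). Ifitm2, Ifi30, Ifnar2 and the immunoproteasome gene Psmb8 made up the rest, at 0.31 (Ifnar2) to 0.70 (Ifitm2). Ifitm2 and Ifi30 missed the threshold without Control + Veh replicate 1 (adjusted p = 0.0516 and 0.0507) and Ifnar2 without CT2A + RT-TMZ + Shef6 EV replicate 3 (0.0525). Ifitm2 and Ifitm3 are close paralogs, and how far their probes share signal was not tested. Irf7, a master regulator of the response, was at 0.76 (adjusted p = 0.0974) and the receptor chain gene Ifnar1 at -0.07. The median stayed above 0 under median centring (0.47), quantile normalization (0.40) and no scaling (0.29), and the number of rises ranged from 4 to 12 with single samples left out. With Ttr as a covariate none of the 19 passed and the median was 0.28. The rises numbered 3 with Mef2c as a covariate, 5 with all groups in 1 fit, 4 beside 1 fall without scaling and 0 with the methods' test.

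The windows of 4 of the risen genes that hold a match are printed (RefSeq, GRCm38.p6, 300 bases around the start). Matches to the core of the interferon-stimulated response element, GAAANNGAAA on either strand, are in capitals. Proteins of the IRF family bind this element. A match was present in 9 of the 18 list members with a window, including 5 of the 8 that rose, and in 3.44% of 32851 windows. The risen genes Ifi30, Psmb8 and Ifnar2 hold none, while Ifih1, Oas1g, Ddx58 and Slfn8, which did not pass, hold a match. The list was drawn up as interferon response genes, so its share of matches is not a result of these data. Ifitm3 (chr7:141010695-141010994, minus strand) holds 2 matches, and Cxcl10 (chr5:92348840-92349139, minus strand), Rsad2 (chr12:26456403-26456702, minus strand) and Gbp2 (chr3:142620413-142620712, plus strand) hold 1 each.
Ifitm3 promoter: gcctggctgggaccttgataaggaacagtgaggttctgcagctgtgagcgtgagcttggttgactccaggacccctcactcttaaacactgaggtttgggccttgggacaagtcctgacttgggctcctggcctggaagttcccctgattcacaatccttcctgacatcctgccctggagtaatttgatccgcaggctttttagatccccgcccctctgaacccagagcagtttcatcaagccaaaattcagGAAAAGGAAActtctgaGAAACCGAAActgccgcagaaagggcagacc
Cxcl10 promoter: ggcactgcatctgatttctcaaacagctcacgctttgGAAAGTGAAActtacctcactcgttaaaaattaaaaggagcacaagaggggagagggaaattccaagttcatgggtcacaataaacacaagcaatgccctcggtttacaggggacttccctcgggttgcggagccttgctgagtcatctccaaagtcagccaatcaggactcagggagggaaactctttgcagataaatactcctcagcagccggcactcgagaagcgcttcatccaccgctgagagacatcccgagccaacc
Rsad2 promoter: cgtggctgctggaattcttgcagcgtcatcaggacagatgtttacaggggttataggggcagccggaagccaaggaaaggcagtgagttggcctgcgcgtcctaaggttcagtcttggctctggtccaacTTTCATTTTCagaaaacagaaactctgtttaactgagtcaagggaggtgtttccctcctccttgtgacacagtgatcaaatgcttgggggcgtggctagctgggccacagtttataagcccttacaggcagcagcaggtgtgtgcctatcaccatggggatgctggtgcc
Gbp2 promoter: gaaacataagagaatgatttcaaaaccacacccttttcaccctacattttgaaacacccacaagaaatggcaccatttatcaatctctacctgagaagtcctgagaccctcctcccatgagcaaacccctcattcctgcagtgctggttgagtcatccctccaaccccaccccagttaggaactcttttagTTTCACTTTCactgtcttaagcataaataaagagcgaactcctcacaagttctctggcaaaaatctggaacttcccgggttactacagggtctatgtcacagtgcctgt

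Reactive astrocyte genes counted 11 rises and 1 fall among 29, where 11.4% of all probes were higher and 6.61% lower, with a median of 0.47. The rises numbered 1 with Ttr as a covariate, 3 with Mef2c as a covariate and 6 with all groups in 1 fit. The fall was of the MHC class I gene H2-T23 (-0.21, adjusted p = 0.0454), lost whichever of the 7 samples was left out (adjusted p up to 0.132), and 3 of the rises (Cxcl10, Gbp2 and Psmb8) are interferon-induced genes named above. Steap4, a metalloreductase gene induced in inflamed astrocytes, was at 5.24, 6.60 and 6.92 in CT2A + RT-TMZ + Shef6 EV and at 4.51, 4.25, 4.39 and 4.55 in Control + Veh, a 3.55-fold higher level (1.83 ± 0.36, adjusted p = 0.0141). It was below background in Control + Veh replicate 2 and close to background in the other Control + Veh samples. CT2A + RT-TMZ + Shef6 EV replicate 1 was the lowest of its group, and the call was lost without replicate 2 of that group (adjusted p = 0.0544). The Steap4 call was also lost with the methods' test and with Ttr as a covariate. Vim, the intermediate filament gene of reactive astrocytes, was at 10.89, 10.43 and 10.69 against 9.88, 10.22, 9.87 and 10.03 (0.67 ± 0.12, adjusted p = 0.0114). The lysophospholipid receptor gene S1pr3 rose by 0.89 ± 0.13 (adjusted p = 0.00468), the adhesion gene Amigo2 by 0.62 ± 0.09 (adjusted p = 0.00433) and the membrane protein gene Emp1 by 0.80 ± 0.16 (adjusted p = 0.0137), and these calls held with any sample left out. Lcn2, the iron-binding lipocalin, was at 6.24, 4.97 and 5.48 against 4.51, 4.25, 4.18 and 4.70 (1.15 ± 0.29, adjusted p = 0.0309), and the protease inhibitor gene Serpina3n rose by 0.77 ± 0.18 (adjusted p = 0.0227). Both were lost without any of 5 single samples (adjusted p up to 0.0853 and 0.0696). Lcn2 was below background in Control + Veh replicates 2 and 3. Osmr, the oncostatin M receptor gene, was at 7.86, 7.73 and 7.99 against 7.13, 7.45, 6.83 and 7.32 (0.68 ± 0.15, adjusted p = 0.0218). It lost its call without Control + Veh replicate 1 or CT2A + RT-TMZ + Shef6 EV replicate 3 (adjusted p up to 0.0727). Astrocyte identity genes moved little: Sox9 (0.21) and Nwd1 (0.26) rose, the glutamate transporter gene Slc1a3 (-0.20) and the gap junction gene Gja1 (-0.16) fell, and each of these calls ended with some single samples left out (adjusted p up to 0.124). Sox9 also turned to -0.05 without the scaling factor. The 3 measured astrocyte markers Aldh1l1, Slc1a3 and S100b summed to 14824 to 16638 normalized counts in CT2A + RT-TMZ + Shef6 EV and 17469 to 18481 in Control + Veh.

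**Figure D5:**
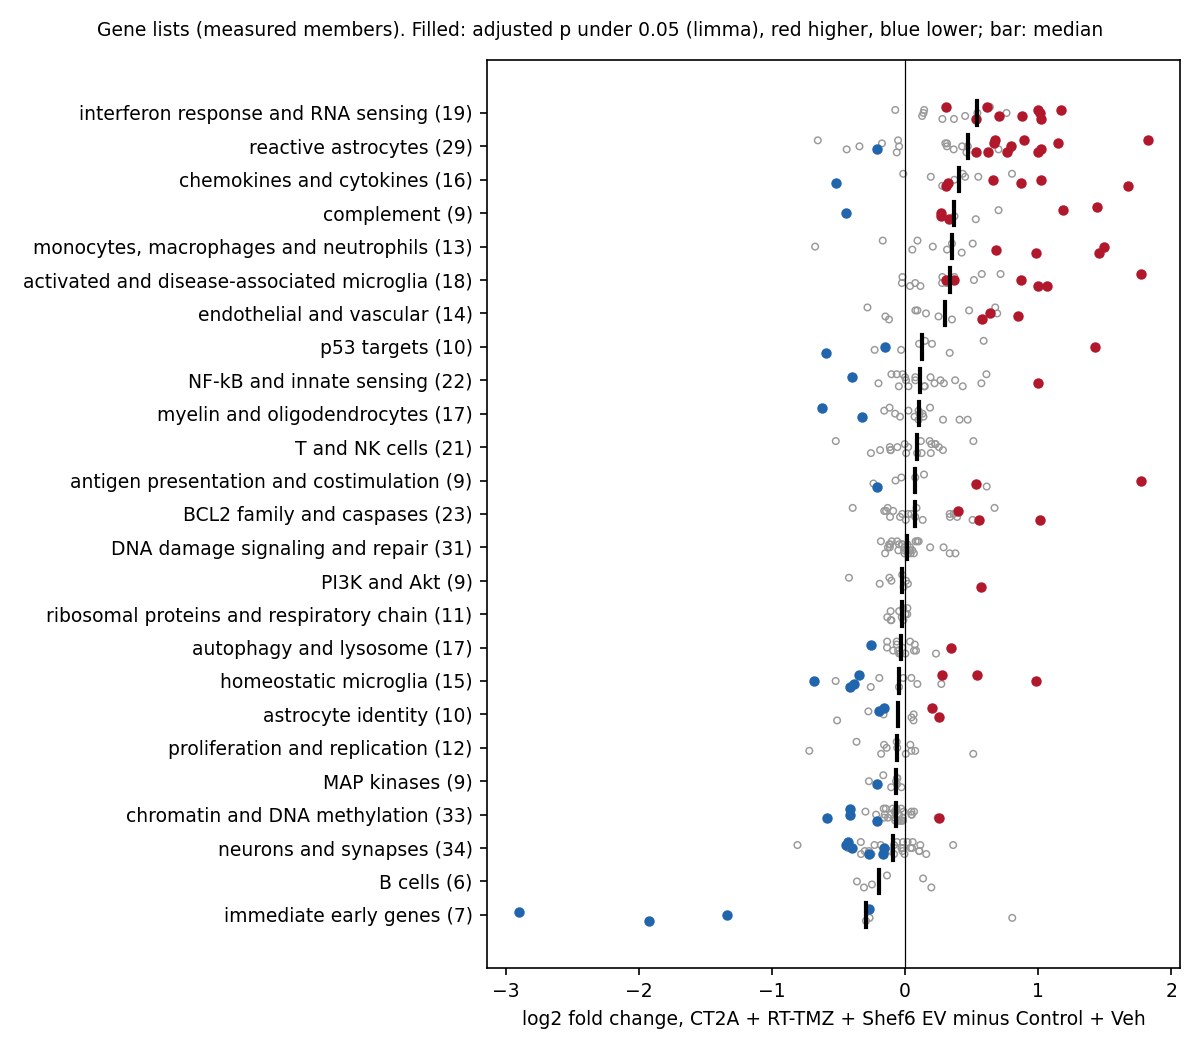
Log2 fold changes (CT2A + RT-TMZ + Shef6 EV minus Control + Veh) of the measured members of 25 gene lists, ordered by median (black bar), with members at an adjusted p under 0.05 filled in red (higher) or blue (lower). Interferon and reactive astrocyte genes lie highest, immediate early genes lowest, and DNA repair, ribosomal and lymphocyte genes hold no filled point.

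Among endothelial and vascular genes 3 of 14 rose (21.4%) and none fell (median 0.30), where 11.4% of all probes were higher and 6.61% lower. There were 1 rise and 2 falls without the scaling factor, and 1 rise and 1 fall after quantile normalization. Cldn5, the tight junction gene of the blood-brain barrier, was at 10.54, 10.55 and 10.56 in CT2A + RT-TMZ + Shef6 EV and at 9.96, 10.11, 9.91 and 9.90 in Control + Veh (0.58 ± 0.06, adjusted p = 0.000803). The CT2A + RT-TMZ + Shef6 EV samples were nearly equal and apart from every Control + Veh sample, and the call held with any sample left out. Its level was also higher than in CT2A + RT-TMZ + Veh (0.67 ± 0.10, adjusted p = 0.0282), a call lost in the same settings as that of Fos, and not past the threshold against CT2A + RT-TMZ + UCI-191 EV (0.18, adjusted p = 0.0612). Emcn, an endothelial sialomucin gene, rose by 0.64 ± 0.17 (adjusted p = 0.0329) and the endocytic adaptor gene Dab2 by 0.85 ± 0.24 (adjusted p = 0.0454), with overlap between the groups for Dab2. Both were lost without any of 5 single samples (adjusted p up to 0.108 and 0.15). The 4 defining endothelial markers Cldn5, Pecam1, Flt1 and Tie1 summed to 2687 to 3125 normalized counts in CT2A + RT-TMZ + Shef6 EV and 2095 to 2364 in Control + Veh, and of these Cldn5 alone passed. Flt1, a VEGF receptor gene, was at -0.12 (adjusted p = 0.349), and Tie1 at 0.08 (adjusted p = 0.764). The laminin receptor gene Itga6 was at 0.16 (adjusted p = 0.0951) and Fbln5, of elastic fibers, at 0.68 ± 0.35 (adjusted p = 0.211), and both overlapped. Dock2, a regulator of leukocyte migration, was at 0.10 (adjusted p = 0.569).

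Ttr passed the threshold with the largest fold change of all, 4.67 ± 1.33 (SE, adjusted p = 0.0454), although the groups overlapped and the call was lost without any of 5 single samples. Within CT2A + RT-TMZ + Shef6 EV, the sample low in Ttr was also lowest of its group in Emcn, at 8.08 against 8.65 and 8.84, in Steap4, and in Eomes, a T-box gene at 4.14 against 6.84 and 6.56. The part of choroid plexus tissue in these results was not tested beyond a fit with Ttr as a covariate, in which 24 probes passed, 13 higher and 11 lower. Of the 69 named genes that passed, 49 lost their call in that fit. Cdkn1a, C4a, Fos, Arc, Egr1, Csf1r and Cldn5 were among the 14 named genes that kept their call there and in all other limma settings. With the methods' test, which is not a limma setting, 62 of the 69 lost their call. Among them were C4a (adjusted p = 0.0704) and Cldn5 (0.0509), while Cdkn1a, Fos, Arc, Egr1 and Csf1r kept it.

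Of 34 neuronal and synaptic genes none rose and 6 fell (17.6%), where 11.4% of all probes were higher and 6.61% lower. The median was -0.09. The falls numbered 24 without the scaling factor, 1 with all groups in 1 fit and 0 with Ttr as a covariate. Grm2, a presynaptic metabotropic glutamate receptor gene, was at 9.80, 9.96 and 9.96 in CT2A + RT-TMZ + Shef6 EV against 10.48, 10.20, 10.34 and 10.39 in Control + Veh (-0.45 ± 0.07, adjusted p = 0.00797). Its relative Grm3, which astrocytes also express, was at 10.93, 10.95 and 10.68 against 11.30, 11.21, 11.36 and 11.26 (-0.43 ± 0.07, adjusted p = 0.00797). The groups did not overlap for either receptor, and both calls held with any sample left out. Tbr1, a transcription factor gene of cortical glutamatergic neurons, was at 9.32, 9.32 and 9.31 against 9.77, 9.40, 9.84 and 9.85 (-0.40 ± 0.11, adjusted p = 0.037), and was lost without any sample but Control + Veh replicate 2 (adjusted p up to 0.1). Mef2c, an activity-regulated transcription factor gene, was at 12.04, 12.07 and 12.09 against 12.47, 12.17, 12.43 and 12.91 without passing (-0.43 ± 0.15, adjusted p = 0.0764). The synaptic adhesion genes Nlgn2 and Cntnap2 fell by 0.16 each, calls that ended with at least 4 single samples left out (adjusted p up to 0.123). The glutamate receptor genes Grin2a, Grin2b, Gria1 and Gria2 lay between -0.02 and 0.12 with no call.

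The lists below held shares below the 18.0% of all probes that passed in either direction (11.4% higher, 6.61% lower), except antigen presentation at 33.3%. In the myelin list 2 of 17 genes fell (11.8%), and neither makes myelin: Lingo1, an inhibitor of myelination that neurons express (-0.33 ± 0.06, adjusted p = 0.0121), and Sox4, a transcription factor gene of progenitor cells (-0.62 ± 0.09, adjusted p = 0.00433). The myelin genes Mog (0.03) and Mag (-0.07) did not differ past the threshold. Chromatin genes counted 4 falls and 1 rise among 33 (15.2%), with a median of -0.07, and no call with Ttr as a covariate. The largest fall was of Suv39h2, a histone H3 methyltransferase gene, at 6.99, 7.20 and 7.22 in CT2A + RT-TMZ + Shef6 EV against 7.87, 7.64, 7.82 and 7.56 in Control + Veh (-0.59 ± 0.11, adjusted p = 0.0129). The demethylase gene Kdm3a fell by 0.42 ± 0.06 (adjusted p = 0.00422) and the DNA methyltransferase gene Dnmt3a by 0.41 ± 0.11 (adjusted p = 0.0341), the last lost without 6 of the 7 single samples (adjusted p up to 0.102). Among 23 BCL2 family and caspase genes 3 rose: the survival gene Bcl2a1a (1.02 ± 0.14, adjusted p = 0.00433), which has near-identical copies in mice, and the death-receptor adaptor genes Fadd (0.56) and Cflar (0.40), both lost without at least 5 single samples (adjusted p up to 0.0967). Ribosomal and respiratory chain genes gave no call among 11 (median -0.02). The deacetylase gene Hdac1 was the 1 chromatin gene that rose (0.26), and its sign turned without the scaling factor. Of 17 autophagy and lysosome genes Lamp2 rose (0.34 ± 0.10, adjusted p = 0.0434) and Map1lc3a fell (-0.26 ± 0.05, adjusted p = 0.0124). Of 22 NF-kB and innate sensing genes Tlr2 rose and the NF-kB inhibitor gene Nfkbia fell (-0.40 ± 0.10, adjusted p = 0.0329). Of 9 PI3K and Akt genes Pik3cg, a leukocyte kinase subunit gene, rose (0.57 ± 0.14, adjusted p = 0.0275), and of 9 MAP kinase pathway genes the phosphatase gene Dusp7 fell (-0.21 ± 0.05, adjusted p = 0.0317). Of 9 antigen presentation genes Cd74 and Psmb8 rose and H2-T23 fell. Hdac1, Lamp2, Nfkbia, Pik3cg and Dusp7 each lost its call without at least 4 of the 7 samples (adjusted p up to 0.127), whereas Map1lc3a kept it with any sample left out. Map1lc3a lost its call after quantile normalization, with all groups in 1 fit and with the methods' test. A replicate block and Ttr or Mef2c as a covariate also ended that call.

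Direct comparisons show where the group stood apart from its nearest neighbors. They share the group's samples with the comparison against Control + Veh, so calls of the same sign in both are not independent. Against CT2A + RT-TMZ + UCI-191 EV, which differs in the cell line that made the EV, 50 probes passed (6.61%), 19 higher (2.51%) and 31 lower (4.1%). After median centring 18 were higher and 55 lower. Mef2c averaged 12.07 ± 0.03 in CT2A + RT-TMZ + Shef6 EV and 13.87 ± 0.15 in CT2A + RT-TMZ + UCI-191 EV (SD, n = 3 each), a difference of -1.81 ± 0.08 (SE, adjusted p = 7.33e-05). Tbr1 (-1.28 ± 0.13, adjusted p = 0.00353) and E2f1 (-1.20 ± 0.16, adjusted p = 0.00993) were lower as well, and so was Cd6, a T cell surface gene (-1.61 ± 0.33, adjusted p = 0.0392) that was below background on average in CT2A + RT-TMZ + Shef6 EV. Higher were Tnfrsf25 (1.37 ± 0.20, adjusted p = 0.0113), Cd109, of TGF-beta signalling (1.12 ± 0.24, adjusted p = 0.0448), the survival gene Birc5 (1.07 ± 0.19, adjusted p = 0.0266) and the integrin gene Itga7 (1.01 ± 0.15, adjusted p = 0.0134). Birc5 was below background on average in CT2A + RT-TMZ + UCI-191 EV (3.77). Of the 136 probes called against Control + Veh, 16 also passed here with the same sign, among them C4a, Vim, Amigo2, Grm3, Lingo1 and Cx3cl1, and 1 with the opposite sign, Tnfrsf25. The count was 10 without CT2A + RT-TMZ + Shef6 EV replicate 3, 17 without its replicate 2, 24 without its replicate 1, 19 without CT2A + RT-TMZ + UCI-191 EV replicate 2 and 0 with Mef2c as a covariate.

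Against CT2A + RT-TMZ + Veh, which lacks the EV, 38 probes passed (5.02%), 28 higher (3.7%) and 10 lower (1.32%). The calls were 14 higher and 12 lower after median centring, and 295 higher and 1 lower without the scaling factor. The vascular genes Flt1 (1.89 ± 0.35, adjusted p = 0.0282), Tie1 (1.73 ± 0.25, adjusted p = 0.0282) and Fbln5 (1.76 ± 0.35, adjusted p = 0.0291) and the death ligand gene Tnfsf10 (1.81 ± 0.30, adjusted p = 0.0282) were higher. None of these 4 passed against Control + Veh. Tnfsf10 was below background on average in CT2A + RT-TMZ + Veh (4.305). Fos, Cx3cl1 (-0.75 ± 0.14, adjusted p = 0.0282), the autophagosome gene Map1lc3a (-0.68 ± 0.14, adjusted p = 0.0321) and the ribosomal gene Rps10 (-0.63 ± 0.11, adjusted p = 0.0282) were lower. Of the 136 probes called against Control + Veh, 13 passed with the same sign, including Fos, Cldn5, Osmr, Sox9, Emp1 and Dab2. The scaling factor of CT2A + RT-TMZ + Veh averaged 1.37 against 1.07 in CT2A + RT-TMZ + Shef6 EV, its part in the result cannot be told apart from the group, and the count was 0 after quantile normalization. It was also 0 without CT2A + RT-TMZ + Veh replicate 1 or 3 or any single CT2A + RT-TMZ + Shef6 EV sample, 115 without CT2A + RT-TMZ + Veh replicate 2 and 144 without its replicate 4.

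Against RT-TMZ + Shef6 EV, which lacks the tumor, no probe passed in limma (0.0%). At an unadjusted p under 0.05, 50 were above and 43 below RT-TMZ + Shef6 EV, and the methods' test gave no call after adjustment. The smallest p-values were those of Cldn5 (0.49 ± 0.08), Cables1, a cell cycle linker gene (-0.50 ± 0.09), Cx3cl1 (-0.54 ± 0.12), Ccl2 (0.74 ± 0.16) and the DNA sensor gene Cgas (0.77 ± 0.18), each with adjusted p = 0.37. When RT-TMZ + Shef6 EV replicate 3 was dropped, which was the lowest of its group in Fos, Arc, Egr1, Tbr1 and Mef2c, 91 probes passed, with 40 higher and 51 lower in CT2A + RT-TMZ + Shef6 EV. A p that misses the threshold here does not show that the groups were alike.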

How the data were processed

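RNA of 24 mouse brain samples was counted with an nCounter panel of 757 probes, and 7 samples of 2 groups entered the comparison with Control + Veh. Per the methods, the authors corrected the barcode counts by positive controls and then by 13 reference genes. The deposited values are log2 normalized counts, and neither the counts nor the control probes were used here. The spacing of low values gave each sample's scaling factor and total (tolerance 0.15 of a count), which was used only for depth and for the alternative without scaling. The study lists the nSolver software of the nCounter maker among its tools, with no role stated for its Advanced Analysis module. Replicates are separate samples by their labels, and where nothing says how they were drawn, p-values measure only the spread between these samples.

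Differences were tested on the deposited log2 values with limma 3.58.1 (R 4.3.3, lmFit and eBayes with a trend on mean level), fitted for each pair of groups alone, with p-values adjusted over all 757 probes by the Benjamini-Hochberg method and a threshold of 0.05. Low probes stayed in the fit, and 20 normalized counts were taken as background. The methods' test, with unequal variances, was run as an alternative, as were median centring, quantile normalization, values without scaling, a pseudocount of 20, probes above background alone, all 7 groups in 1 fit, no trend, a replicate block, Ttr or Mef2c as a covariate, and each sample left out. The fitting step was tested on simulated data. Named genes were the 12 largest rises and the 12 largest falls that passed, lay above background in the higher group and did not overlap, up to 4 passing members of each of 25 gene lists (otherwise the 2 of smallest p), 6 genes the study discusses and 4 marker genes. The samples, lists and genes were chosen with earlier results of these data known, and lists share members. The 54 probes without a symbol stayed in every test and are not reported singly. Promoter windows are those of RefSeq GRCm38.p6, matched by gene identifier. Python 3.11.15 with pandas 2.3.3, scipy 1.17.1 and matplotlib 3.10.9 was used for counts and figures.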

Additional observations from a re-analysis of the deposited data

Results flagged for a closer look

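Among the named genes, 7 had a Control + Veh sample that stood apart from the other 3 by Dixon's criterion. Chance gives such a gap in about 1 in 20 groups, and no such check is possible in the 3 samples of CT2A + RT-TMZ + Shef6 EV. Control + Veh replicate 2 was high in C4a, at 9.98 where the others lay at 9.55 to 9.59, in C3ar1, at 6.71 where the others lay at 6.44 to 6.47, and in Nwd1, at 9.97 where the others lay at 9.85 to 9.86. Every CT2A + RT-TMZ + Shef6 EV value of these 3 genes was still above it. Control + Veh replicate 3 was low in Ccl3, at 4.64 against 4.91 to 4.96, and in the histone gene H2ax, at 6.55 against 6.9 to 6.91. Emcn was at 7.99 in Control + Veh replicate 1 against 7.85 to 7.86 in the others, and Gadd45g at 9.05 in Control + Veh replicate 4 against 8.93 to 8.95. In these last 4 genes too the values of CT2A + RT-TMZ + Shef6 EV did not overlap with those of Control + Veh.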

How the results depend on the processing

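Against Control + Veh, the 136 calls became 277 without the scaling factor, 78 with all groups in 1 fit, 12 with the methods' test, 62 with a replicate block, 24 with Ttr and 72 with Mef2c as a covariate, and 57 to 149 with single samples left out. Median centring, quantile normalization, a pseudocount, probes above background alone and no trend kept the count within 1.5 times. Against CT2A + RT-TMZ + UCI-191 EV the 50 calls became 25 with all groups in 1 fit, 1 with the methods' test, 25 without the trend, 11 with a replicate block, 0 with Mef2c as a covariate and 10 to 64 with single samples left out. Against CT2A + RT-TMZ + Veh the 38 calls became 0 after quantile normalization, with the methods' test and with Ttr as a covariate, 296 without scaling, 61 over probes above background, 237 with all groups in 1 fit, 71 with a replicate block, 173 with Mef2c as a covariate and 0 to 144 with single samples left out. Against RT-TMZ + Shef6 EV the 0 calls became 2 with all groups in 1 fit and 0 to 91 with single samples left out. Same-numbered samples of CT2A + RT-TMZ + Shef6 EV and Control + Veh did not deviate together (r = -0.114, 0.137 and -0.286), so the block pairs them by number alone.

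The direction turned for Sox9 (-0.052), Hdac1 (-0.001) and Itga6 (-0.1) without scaling, for Dock2 without scaling (-0.157), after quantile normalization (-0.08) and with Mef2c as a covariate (-0.072), and for Klrk1 (-0.232) and Eomes (-0.642) with Ttr as a covariate. The median level of all probes per sample was higher by 0.07 in CT2A + RT-TMZ + Shef6 EV (two-sided exact permutation p = 0.171, where 0.0571 is the smallest possible) and turned to -0.188 without scaling. The cause of each was not tested. Of the 84 named genes 69 passed, and 14 of these kept their call in every limma setting. With the methods' test 62 of the 69 lost it. Probes under 20 normalized counts limit what can be said of lymphocyte genes at this depth.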

Other observations

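Several genes outside the lists changed against Control + Veh and were picked out after their values were seen. Mgmt, which encodes the enzyme that removes the O6-alkyl adducts temozolomide makes in DNA, was at 6.19, 6.06 and 6.53 in CT2A + RT-TMZ + Shef6 EV against 5.75, 5.54, 5.77 and 5.47 in Control + Veh (0.63 ± 0.16, limma adjusted p = 0.0305). The groups did not overlap, and the call was lost without any sample but CT2A + RT-TMZ + Shef6 EV replicate 2 (adjusted p up to 0.0919). Its mean was 6.25 in CT2A + RT-TMZ + UCI-191 EV, 6.46 in CT2A + RT-TMZ + Veh and 6.30 in RT-TMZ + Shef6 EV. The TNF receptor gene Tnfrsf1a was at 8.46, 8.72 and 8.88 in CT2A + RT-TMZ + Shef6 EV against 8.01, 8.07, 7.81 and 7.95 in Control + Veh (0.73 ± 0.11, adjusted p = 0.00641). Mr1, which presents vitamin B metabolites to T cells, rose by 0.88 ± 0.17 (adjusted p = 0.0121). Both calls held with any sample left out.

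The NRF2 target gene Nqo1 was at 7.47, 8.16 and 8.40 in CT2A + RT-TMZ + Shef6 EV against 7.30, 7.14, 6.97 and 7.31 in Control + Veh (0.83 ± 0.21, adjusted p = 0.0311), and lost its call without any of 5 samples (adjusted p up to 0.101). Trp73, a relative of p53, was at 7.21, 7.82 and 7.76 against 6.69, 6.94, 6.47 and 6.31 (0.99 ± 0.20, adjusted p = 0.0141), and lost its call without CT2A + RT-TMZ + Shef6 EV replicate 2 (0.0571). In both genes the lowest CT2A + RT-TMZ + Shef6 EV sample was replicate 1, which was also low in Ttr, and the part of choroid plexus tissue in them was not tested. Clstn1, a gene of axonal transport and synapses, was at 10.84, 10.90 and 10.88 against 11.32, 11.21, 11.32 and 11.47 (-0.46 ± 0.06, adjusted p = 0.00422). It was also lower than in CT2A + RT-TMZ + UCI-191 EV (-0.73 ± 0.07, adjusted p = 0.00353). The deacetylase gene Sirt1 fell by 0.32 ± 0.05 against Control + Veh (adjusted p = 0.00855), and neither fall depended on a single sample.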
